A study of Mus musculus with 21 samples.

Results

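The cytosolic ribosomal protein genes were described in the lungs of 21 C57BL/6 mice, 3 animals in each of 7 groups. They were chosen by symbol alone: every symbol that starts with Rpl or Rps and continues with a number (with or without an a, x or l ending), together with Rplp0, Rplp1, Rplp2 and Rpsa. This gave 84 of the 23238 symbols in the files. By the start of the symbol alone, 48 were assigned to the large subunit, 33 to the small subunit and 3 to the stalk. Of the 84, 7 are named as relatives of another ribosomal protein gene (Rpl3l, Rpl7l1, Rpl10l, Rpl22l1, Rpl39l, Rps4l and Rps27l). Whether the product of each is part of the mature ribosome was not examined. Symbols of S6 kinases, mitochondrial ribosomal proteins and retrocopies were not included. The groups were propylene glycol (PG) at the labelled doses 826 and 1100 with saline as control, and vitamin E acetate (VEA) at the labelled doses 3.12, 6.25 and 12.5 with 10% ethanol as control. Both agents are liquids used in e-cigarette fluids. The sources give the dose unit in 2 ways (per kg of body weight and per mL), so doses are named here by number only. Each mouse received 50 µL into the trachea once a day for 14 days and was killed on day 15, and RNA came from lung tissue after lavage, which removes cells of the airspace. The labels give no age, sex or transgene.

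Every ribosome is built from ribosomal RNA and about 1 copy of each of these proteins, divided between a small subunit that reads the messenger RNA and a large subunit that joins amino acids. Their mRNAs are among the most abundant in most cells. They begin with a run of pyrimidines at the very 5′ end (the terminal oligopyrimidine, or TOP, motif) through which the kinase complex mTORC1 raises or lowers their translation together. That control acts on translation and need not change the mRNA level, which is what was measured here. Several ribosomal proteins also bind Mdm2, the inhibitor of p53, when ribosome assembly is disturbed.

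The libraries were made from the 3′ ends of transcripts (QuantSeq), so a count stands for a transcript end and is not divided by gene length. Total counts were 8778028 to 11783151 per library. All 77 members without a paralog ending had at least 444 counts in every library, so counting error was small beside the spread between animals. Rpl10l, whose known site of expression is the testis, had 3 counts in all 21 libraries, 1 in 1 PG 1100 animal and 1 each in 2 VEA 6.25 animals, and was the only member not tested. Rpl39l, also a germ cell gene, and Rpl3l, the striated muscle relative of Rpl3, passed the filter on low counts but had at most 17 and 50 counts in any library. The other 4 paralogs were clearly expressed. Levels below are in CPM, a gene's counts relative to the scaled library size, which serves comparisons between animals and not between genes.

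Ribosomal protein genes took 3.52% ± 0.46 of all counts in saline lungs, 3.59% ± 0.429 at PG 826 and 3.99% ± 0.249 at PG 1100 (SD, n = 3 each). The same share was 3.42% ± 0.069 in ethanol lungs, 4.07% ± 0.173 at VEA 3.12, 4.34% ± 0.375 at VEA 6.25 and 3.91% ± 0.398 at VEA 12.5 (SD, n = 3 each). All animals at VEA 3.12 and 6.25, from 3.97% to 4.74%, lay above the 3 ethanol animals, from 3.38% to 3.50%, while VEA 12.5 spanned 3.46% to 4.22% and overlapped ethanol.

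The members moved as a block between animals of 1 group. For each library, the level of every tested member was set against that member's own mean over the 21 libraries (log2 CPM after TMM scaling). Saline animal 6 was the lowest library for 54 of 83 members, with a median of -0.39, and none of its 83 members was above its own mean. VEA 6.25 animal 65 was the highest library for 59 of 83 members, with a median of 0.46, and 81 members were above their mean. The other saline animals had medians of 0.19 and 0.14, and the other VEA 6.25 animals 0.06 and 0.20. The 3 ethanol animals had medians of -0.10, -0.05 and -0.11, and VEA 12.5 animals -0.26, -0.07 and -0.03. Within groups, the mean member level had an SD of 0.18 on the log2 scale, and the median member an SD of 0.20, against 0.17 for 2001 genes of like level. The share of all genes with an unadjusted p below 0.05 is not given here, so counts of such members have no share beside them. Because members moved together, the counts below of members above 0, separated or with a low unadjusted p are not counts of independent results. They describe few animals, also where set beside the share of all genes.

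**Figure D1:**
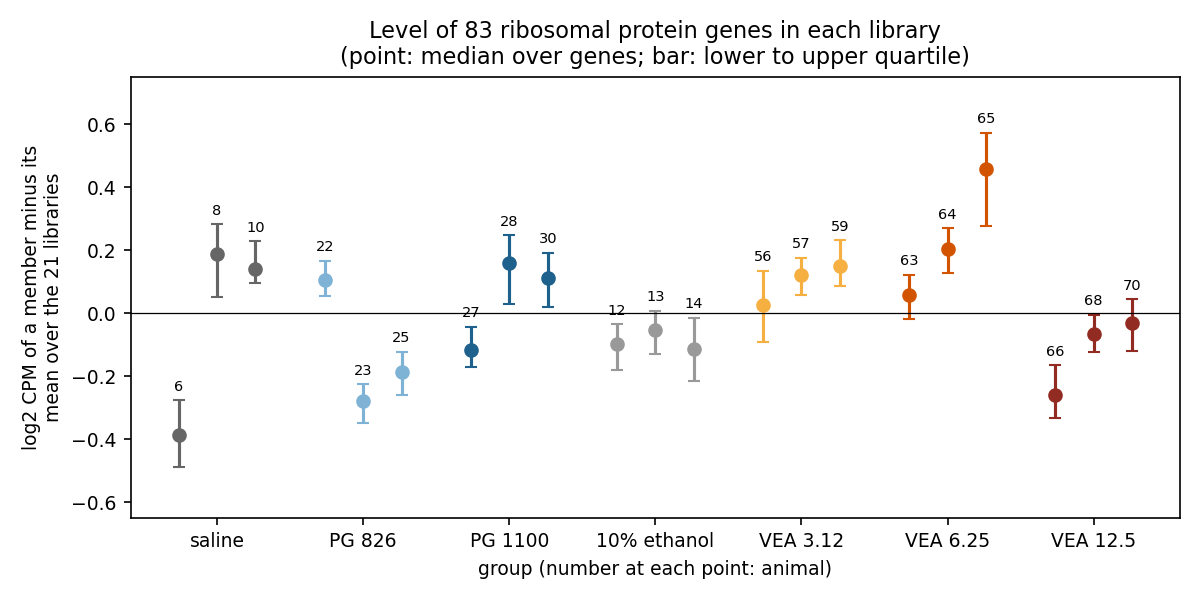
Level of the 83 tested ribosomal protein genes in each of the 21 libraries, as log2 CPM minus each gene's mean over all libraries (vertical axis), by group (horizontal axis); points are medians over genes, bars run from the lower to the upper quartile, and numbers name the animals. Saline animal 6 (-0.39) and VEA 6.25 animal 65 (0.46) lie farthest from 0, and the VEA 3.12 and VEA 6.25 animals lie above the ethanol animals.

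These 2 libraries bear on what follows. VEA 6.25 animal 65 had the fewest genes with a count (14843, where the other 20 libraries began at 15015) and the largest share of counts in Rn45s, the ribosomal RNA precursor (26.1%). Saline animal 6 was not unusual in either measure, with 15480 genes and 21.9% in Rn45s. The main counts and medians of each comparison that uses either animal are given with and without it.

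At VEA 6.25, a set of ribosomal protein mRNAs from both subunits rose relative to ethanol lungs. With edgeR's quasi-likelihood test and Benjamini-Hochberg adjustment over 14727 genes, 13 of 83 members passed an adjusted p of 0.05, all upward, which is 15.7% of the members where 5.76% of all genes passed in either direction and 3.51% upward. The median member had a log2 fold change of 0.36, against 0.00 for all genes tested, and 79 of 83 members were above 0, where 49.7% of all genes were. All 3 VEA 6.25 animals lay above all 3 ethanol animals for 50 members, where 12% of all genes were separated upward, and below them for none, where 11.5% were. In bulk lung, more RNA per cell and more cells of a type rich in these mRNAs cannot be told apart. The count rests on animal 65: without it no member passed, at a median of 0.24. In the remaining animals 74 of 83 members were above 0, and the groups were separated upward for 51 members and downward for 2, where 17.1% and 16.1% of all genes were with 1 animal fewer. Further, without animal 63 of the same group 24 members passed. Without VEA 6.25 animal 64 or ethanol animal 12, 13 or 14 the count was 5, 4, 5 or 4. Without animal 65, 1.92% of all genes passed upward. For the fits without another animal that share is not given here.

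The 13 members came from both subunits and the stalk. Among the small-subunit genes that rose were Rps24 and Rps7, both mutated in the human red cell disorder Diamond-Blackfan anaemia, Rps9 and Rps2, which line the entry of the mRNA channel, and Rps13. From the large subunit rose Rpl39, a very small protein in the wall of the exit tunnel, together with Rpl22, Rpl31 and Rpl36a. The stalk contributed Rplp2, part of the flexible arm that recruits elongation factors, and the paralogs contributed Rps27l and Rpl22l1. Log2 fold changes of the 13 ran from 0.44 (Rplp2, adjusted p = 0.0484) to 0.80 (Rps27l, adjusted p = 0.00392). Rplp0, the base of the stalk, had a log2 fold change of -0.10 at VEA 6.25 (adjusted p = 0.753) and did not pass.

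Rps27l (chr9:66946086-66949516, plus strand, GRCm38), the paralog of the small-subunit gene Rps27 and known in human cells as a target of p53, had the largest fold change among the members that passed. Its level was 166, 202 and 261 CPM at VEA 6.25, against 127, 111 and 123 CPM in ethanol lungs. Every VEA 6.25 animal was above every ethanol animal, and the log2 fold change was 0.80 ± 0.17 (SE). Rpl39 (chrX:37082520-37085402, minus strand) had 343, 393 and 424 CPM at VEA 6.25, against 251, 266 and 243 CPM in ethanol lungs, a log2 fold change of 0.61 ± 0.14 (edgeR, adjusted p = 0.00809). The lowest VEA 6.25 animal was well clear of the highest ethanol animal.

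Rps9 (chr7:3703993-3706897, plus strand) had 1254, 1241 and 1469 CPM at VEA 6.25, against 915, 890 and 947 CPM in ethanol lungs. Its log2 fold change was 0.53 ± 0.13 (SE, edgeR, adjusted p = 0.00978), and the groups did not overlap. Rps24 (chr14:24487125-24496959, plus strand) had 1030, 1112 and 1474 CPM at VEA 6.25, against 870, 811 and 686 CPM in ethanol lungs, with a log2 fold change of 0.61 ± 0.15 (adjusted p = 0.0124). Here animal 65 stood apart from the other VEA 6.25 animals, although they too were above all ethanol animals. Without animal 65 these 4 genes had log2 fold changes of 0.61 (Rps27l), 0.54 (Rpl39), 0.44 (Rps9) and 0.44 (Rps24), and none passed.

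Rps7 had 156, 160 and 207 CPM at VEA 6.25, against 105, 110 and 129 CPM in ethanol lungs, and Rpl36a had 169, 209 and 251 CPM at VEA 6.25, against 143, 151 and 141 CPM in ethanol lungs. The log2 fold changes were 0.60 for Rps7 and 0.53 for Rpl36a. Rpl22, which T cell development in mice requires, had 1444, 1724 and 2369 CPM at VEA 6.25, against 1190, 1259 and 1233 CPM in ethanol lungs. Its log2 fold change was 0.59 ± 0.18 (SE, edgeR, adjusted p = 0.0417). Rps2, Rpl31 and Rps13 each had a log2 fold change of 0.49, and in all 13 genes that passed the groups were separated.

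The libraries carried the markers of lung, with surfactant and club cell genes at high levels in all animals. Several of these markers moved with the same comparisons. At VEA 6.25, the summed CPM of 3 club cell markers was 29326 to 34826, against 49301 to 67624 in ethanol lungs, and 2 of 3 passed downward. The sum of 4 endothelial markers was 703 to 728, against 1038 to 1074 in ethanol lungs (2 of 4 passed downward), and that of 8 erythroid markers 58525 to 81660, against 88908 to 113483 (2 of 8 downward, and none without animal 65). For 5 alveolar macrophage markers it was 1224 to 1388 at VEA 6.25, against 694 to 703 in ethanol lungs, with 2 of 5 upward and a median log2 fold change of -0.05. Sums of 6 type II cell markers, 24645 to 25812 against 25194 to 29756 in ethanol lungs, overlapped, and 1 of 6 passed upward. The sum of 4 B cell markers was 22.6 to 37.2 at VEA 6.25 and 29.7 to 38.4 in ethanol lungs, and that of 3 T cell markers was 12.4 to 21.8 at VEA 6.25 and 6.90 to 15.4 in ethanol lungs, with none past the test. No marker of these lists was at 0 in either group. At PG 1100 the club cell sum was 22216 to 31346, against 51321 to 67724 in saline lungs, with 2 of 3 markers downward. The endothelial sum there was 493 to 684, against 919 to 1173 in saline lungs (4 of 4 downward), and the erythroid sum 45635 to 52274, against 63475 to 162734 (7 of 8 downward). Type II cell markers summed to 33462 to 52122 at PG 1100 and 26268 to 36653 in saline lungs, with 3 of 6 upward. Alveolar macrophage markers summed to 1046 to 1736 at PG 1100, against 526 to 832 in saline lungs (1 of 5 upward and 1 downward), and B cell markers to 17.7 to 21.7, against 31.5 to 32.5 (1 of 4 downward). T cell markers summed to 7.91 to 9.19 at PG 1100 and 7.40 to 12.3 in saline lungs, and none passed. At VEA 12.5 the club cell sum was 26455 to 28254 (3 of 3 markers downward). The endothelial sum there was 679 to 741 (2 of 4 downward) and the erythroid sum 36634 to 46789 (8 of 8 downward). The alveolar macrophage sum was 1097 to 1316, with 2 of 5 markers upward and a median log2 fold change of -0.37. Only those 2 of the 5 were above 0. Of the type II cell markers 2 of 6 passed upward, and no B or T cell marker passed. Of all genes, 5.76% passed either way at VEA 6.25, 9.71% at VEA 12.5 and 7.31% at PG 1100. The part of these cell types in the ribosomal protein results was not tested.

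Rn45s took 22.1% to 26.1% of counts at VEA 6.25, against 18.5% to 21.3% in ethanol lungs. When Rn45s and 10 haemoglobin genes were left out, the same number of members passed at VEA 6.25, 13, at a median of 0.35.

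At VEA 3.12 the members leaned the same way without any passing the test. The median log2 fold change was 0.17, against -0.01 over all genes, and 74 of 83 members were above 0, where 49.2% of all genes were. None passed, where 5.51% of all genes did, and 18 members had an unadjusted p below 0.05 (share of all genes not given here). With DESeq2 2 members passed and with limma-voom none. The smallest adjusted p was that of Rpl39 (edgeR, 0.0622), which had 326, 363 and 346 CPM at VEA 3.12 and 251, 266 and 243 CPM in ethanol lungs. Rpl35, which sits at the exit of the tunnel, had 502, 494 and 524 CPM at VEA 3.12 and 360, 359 and 391 CPM in ethanol lungs (log2 fold change 0.45, adjusted p = 0.093). Below 0, Rpl10 (-0.11) and Rpl27 (-0.10) had the smallest p and did not pass. The animals of the groups were separated upward for 39 members, where 12.9% of all genes were, and downward for none, where 11.8% were. The comparison shares its 3 ethanol animals with the one at VEA 6.25. Scaled to the sum of the members themselves, the median became -0.04. That scaling removes any shift the members share, so it cannot show whether one was present.

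At VEA 12.5, the highest dose, ribosomal protein genes did not stand above ethanol. The median log2 fold change was -0.03, against -0.01 over all genes, and 37 of 83 members were above 0, where 48.7% of all genes were. No member passed with edgeR, DESeq2 or limma-voom, where 9.71% of all genes passed with edgeR, and 1 member had an unadjusted p below 0.05. Separation was upward for 4 members and downward for 5, where 15.3% and 14.8% of all genes were separated. Rps9 had 968, 1147 and 1076 CPM at VEA 12.5 and 915, 890 and 947 CPM in ethanol lungs (log2 fold change 0.21, adjusted p = 0.349). Rps27l had 124, 148 and 169 CPM at VEA 12.5 and 127, 111 and 123 CPM in ethanol lungs (log2 fold change 0.29, adjusted p = 0.352), so its groups overlapped. The smallest p among members below 0 was that of Rpl7l1, with 49.1, 45.1 and 44.4 CPM at VEA 12.5 and 62.1, 62.6 and 57.1 CPM in ethanol lungs (log2 fold change -0.39, adjusted p = 0.11). Rpl7l1 was low in all 3 VEA 12.5 animals.

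The zero line at this dose depends on how libraries are scaled. The VEA 12.5 libraries had TMM factors of 1.10 to 1.15, the 3 highest of the 21. With scaling by library totals alone, the median member was at 0.20 and 7 passed upward, while the median over all genes tested also moved to 0.21. Relative to all genes, the members were thus near 0 at VEA 12.5 under both scalings.

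**Figure D2:**
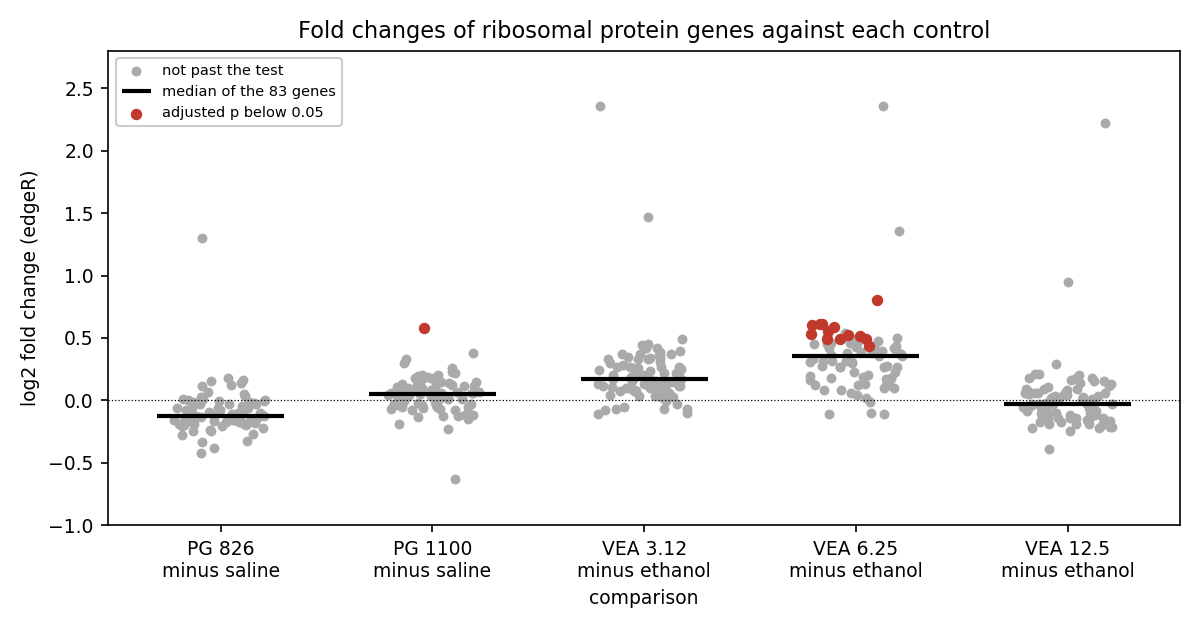
Log2 fold change of each of the 83 tested members (points) in the 5 comparisons of a dose with its control, with the median as a bar and members past the test in red; the 3 outlying points above 2 are Rpl39l, which had few counts. The median was 0.36 at VEA 6.25 (13 members passed), 0.17 at VEA 3.12 (-0.04 when scaled to the sum of the members) and -0.03 at VEA 12.5 (0.20 with library totals alone). It was 0.05 at PG 1100 (1 member passed, and the median was 0.21 with library totals alone) and -0.12 at PG 826 (0.04 with library totals alone). Scaling to the sum of the members removes a shift they share. With library totals alone, the median over all genes also moved at VEA 12.5 and PG 1100. The 0.04 at PG 826 is not relative to all genes either.

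The doses were also set against each other. In VEA 12.5 minus VEA 6.25, a comparison added after the data were seen, all 83 members were below 0, where 50.7% of all genes were above it, with a median of -0.35 (-0.13 with library totals alone, where all genes had a median of 0.21, and 0.02 when scaled to the sum of the members). None of the members passed with edgeR or limma-voom (smallest adjusted p = 0.158, Rpl30) and 1 did with DESeq2. An unadjusted p below 0.05 was seen for 51 members, and the share of all genes with one is not given here. Of all genes, 0.00679% passed. Rpl30 had 137, 180 and 157 CPM at VEA 12.5 and 235, 231 and 252 CPM at VEA 6.25, separated groups with a log2 fold change of -0.60 that did not pass. The VEA 12.5 animals lay below all VEA 6.25 animals for 48 members, where 8.34% of all genes were separated downward, and above them for none, where 8.09% were. Without VEA 6.25 animal 65 the median was -0.23, 79 of 83 members were below 0, 16 had an unadjusted p below 0.05, and 48 were again separated downward, where 12.9% of all genes then were. In VEA 12.5 minus VEA 3.12, 80 of 83 members were below 0, where 50.1% of all genes were above it, with a median of -0.21 (-0.03 with library totals alone and 0.03 when scaled to the sum of the members). TMM factors were 1.10 to 1.15 at VEA 12.5 and 0.97 to 1.01 at VEA 3.12. With library totals alone, genes in general are thus raised in this comparison, and the -0.03 is not relative to all genes. No member passed there, 0% of all genes did, 14 members had an unadjusted p below 0.05, and 36 were separated downward, where 7.14% of all genes were, and none upward, where 7.2% were. DESeq2 and limma-voom passed no member in that comparison. The lean was thus not past the test between doses, and both comparisons share the VEA 12.5 animals.

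Over the mean of the 3 VEA doses, 4 members passed, all upward: Rps27l, Rpl39, Rps24 and Rps9. That is 4.82% of the members, where 11.6% of all genes passed and 6.08% passed upward. Their log2 fold changes were 0.53 ± 0.15, 0.41 ± 0.12, 0.40 ± 0.13 and 0.36 ± 0.11 (SE, edgeR, adjusted p = 0.014, 0.0216, 0.0329 and 0.0215). Only for Rps9 among these 4 were all 9 VEA animals above all 3 ethanol animals. That separation held for 4 of the 83 members, where 5.62% of all genes had it, and the opposite for none, where 5.13% did. Ethanol animals 13 and 14 decide the count, since without either of them no member passed, without ethanol animal 12 there were 2, without VEA 6.25 animal 63 there were 9, and without VEA 6.25 animal 65 there were 3, at a median of 0.14. Without animal 65, 5.65% of all genes passed upward, and for the fits without another animal that share is not given here. Below 0, Rpl7l1 (-0.19) and Rplp0 (-0.10) had the smallest p and did not pass. The median member was at 0.16, and at -0.01 when scaled to the sum of the members.

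**Figure D3:**
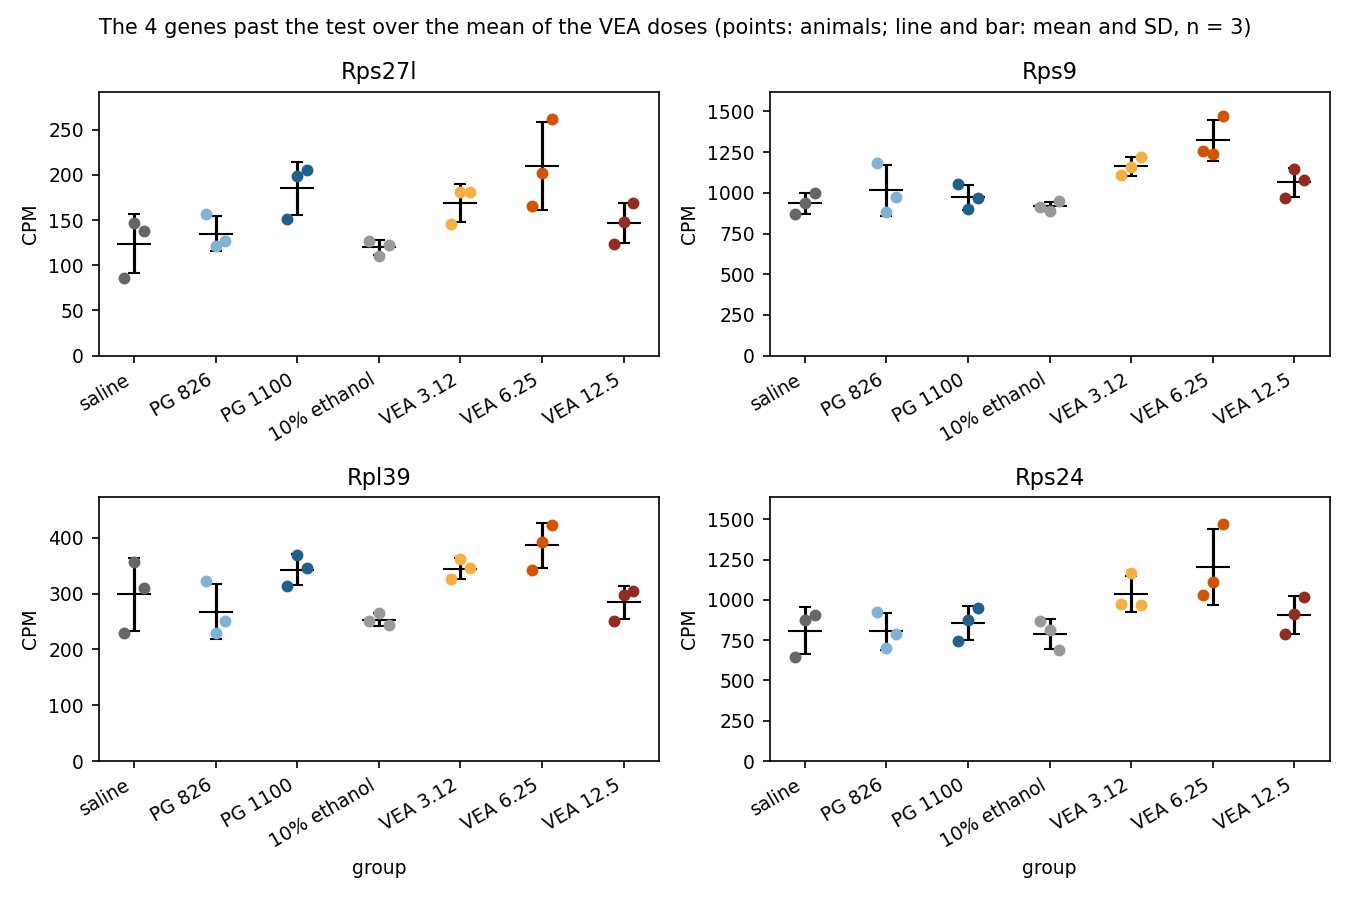
CPM (vertical axis, from 0) of Rps27l, Rps9, Rpl39 and Rps24 in each animal (points) of the 7 groups, with mean and SD (n = 3). For Rps9 the 9 VEA animals lie above the 3 ethanol animals, and for Rps27l the PG 1100 animals (151 to 205 CPM) lie above the saline animals (86.4 to 146 CPM).

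Scaled to the sum of the members, none of the 83 passed in any VEA comparison. In VEA 6.25 minus ethanol the median was then 0.01, with all genes at -0.32, and Rps27l was at 0.45 (adjusted p = 0.0691, where the other alternatives of this result spanned 1.1e-05 to 0.154). On this scale only differences among ribosomal protein genes remain.

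Propylene glycol was compared with saline. At PG 826 the median log2 fold change was -0.12, against 0.00 over all genes, and it was 0.04 with library totals alone and 0.02 when scaled to the sum of the members. TMM factors were 0.99 to 1.05 at PG 826 and 0.85 to 1.03 in saline lungs. The 0.04 with library totals alone is therefore not relative to all genes. No member passed with edgeR, DESeq2 or limma-voom, where 0.136% of all genes passed with edgeR, 4 members had an unadjusted p below 0.05, and the animals of the groups were separated for none, where 7.27% of all genes were separated upward and 6.67% downward. Rpl27 had 142, 99.4 and 133 CPM at PG 826 and 134, 185 and 183 CPM in saline lungs (log2 fold change -0.42, adjusted p = 0.409). Those groups overlapped. Rpl7l1 was at -0.38, and above 0 Rplp2 (0.15) and Rpl12 (0.18) had the smallest p, none of them past the test. Single libraries weigh on this comparison. The median was -0.29 without saline animal 6 and -0.25 without PG 826 animal 22, but 0.00 without saline animal 8 and -0.04 without saline animal 10 or PG 826 animal 23. Without saline animal 6, 75 of 83 members were below 0 and 36 were separated downward, where 15.8% of all genes then were, and none passed.

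At PG 1100, 1 of 83 members passed, which is 1.20%, where 7.31% of all genes passed and 4.09% passed upward. It was Rps27l, with 151, 199 and 205 CPM at PG 1100, against 86.4, 146 and 138 CPM in saline lungs. Its log2 fold change was 0.58 ± 0.17 (SE, edgeR, adjusted p = 0.0333), and all PG 1100 animals were above all saline animals, though the lowest PG 1100 value was close to the highest saline value. Scaled to the sum of the members, Rps27l was still the single member that passed, at 0.57 ± 0.15 (adjusted p = 0.0305, where the other alternatives spanned 0.0017 to 0.196). The call was lost without saline animal 6 (0.38), without PG 1100 animal 28 (0.53) or animal 30 (0.50). Below 0, Rps3a1 (-0.19) did not pass. The median member was at 0.05, against 0.01 over all genes. With library totals alone it was 0.21, with all genes at 0.15, and 3 members passed. Leaving out single libraries moved the median between -0.09 (without saline animal 6) and 0.14 (without saline animal 8). Separation was upward for 3 members, where 10.1% of all genes were, and downward for none, where 9.69% were. Without saline animal 6 these counts were 3 upward and 27 downward, where 16.1% and 15.4% of all genes then were.

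Between the PG doses, 75 of 83 members were higher at PG 1100 than at PG 826, where 50.8% of all genes were, with a median of 0.16 (0.00 when scaled to the sum of the members). A single one passed, Rpl7l1, where 5.55% of all genes passed and 2.85% passed upward. Separation was upward for 4 members, where 9.93% of all genes were, and downward for 1, where 10.5% were. Rpl7l1 had 60.6, 72.3 and 64.7 CPM at PG 1100, against 34.1, 45.8 and 52.4 CPM at PG 826, a log2 fold change of 0.58 ± 0.16 (edgeR, adjusted p = 0.0196). The call was lost without PG 826 animal 22 (0.42) or 23 (0.60) and without PG 1100 animal 28 (0.50). With saline at 47.2, 65.4 and 60.2 CPM, neither PG dose passed against it for this gene.

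The controls themselves were compared. In ethanol minus saline the median member was at -0.09 and 0% of all genes passed with edgeR. No member passed with edgeR, DESeq2 or limma-voom, and none had an unadjusted p below 0.05. Without saline animal 6 that median was -0.26, with 64 members separated downward, where 13.1% of all genes then were, and without saline animal 8 it was 0.00. The difference between the VEA 12.5 effect and the PG 1100 effect gave a median of -0.07 (0.09 without saline animal 6), with no member past the edgeR test (0.19% of all genes) and 1 with an unadjusted p below 0.05. DESeq2 and limma-voom passed no member there.

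The paralogs were followed beside their partners, as the share of the paralog in the CPM of both. The transcript end of Rps27l shares no 50-base stretch with another gene, while 44.7% of such stretches of Rps27 also lie in other genes, so Rps27 is the less certain of the pair. Rps27l made up 51.9%, 57.6% and 60.3% of the pair at PG 1100 (lowest, median and highest animal), against 42.3%, 43.1% and 48.5% in saline lungs. At PG 826 it was 44.3%, 47.2% and 50.0%, overlapping saline. Each VEA dose had a higher mean share than ethanol, with 44.8% ± 3.09 in ethanol lungs, 50.5% ± 3.68 at VEA 3.12, 49.9% ± 1.20 at VEA 6.25 and 51.3% ± 1.60 at VEA 12.5 (SD, n = 3 each). The VEA 6.25 and 12.5 animals lay above all ethanol animals, and VEA 3.12 overlapped them.

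Rpl22l1, whose RNA Rpl22 is known to bind and hold down in mice, made up 12.0% to 13.3% of its pair with Rpl22 at PG 1100, against 10.3% to 10.7% in saline lungs. All PG 826 animals were also above all saline animals, though the lowest (10.75%) was close to the highest saline value (10.66%). In CPM, Rpl22l1 itself had 192, 196 and 213 at PG 1100 and 116, 192 and 181 in saline lungs, and did not pass. At VEA 6.25 both genes of the pair passed upward, and Rpl22l1 made up 9.87% to 10.8% of the pair, against 9.63% to 11.6% in ethanol lungs. Rpl7l1 made up 16.5% to 17.2% of its pair with Rpl7 at VEA 6.25, against 20.5% to 23.4% in ethanol lungs, so its share was lower while its level (53.7, 53.1 and 61.8 CPM at VEA 6.25, against 62.1, 62.6 and 57.1 CPM in ethanol lungs) overlapped. Of the 50-base stretches of Rpl7, 67.8% also lie in other genes, so the level of Rpl7 and this share are uncertain. Rps4l, beside its X-linked partner Rps4x, made up 8.70% to 15.2% of the pair at VEA 6.25 and 12.1% to 14.3% in ethanol lungs, and did not pass in any of the 11 comparisons. Among the partners, Rps27 had a log2 fold change of 0.50 at VEA 6.25, Rpl7 0.36, Rpl3 0.10, Rps4x 0.08 and Rpl10 -0.01, and none of these 5 passed. At PG 1100, Rps27 was at -0.12 and Rpl22 at 0.01, beside 0.58 for Rps27l and 0.30 for Rpl22l1.

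**Figure D4:**
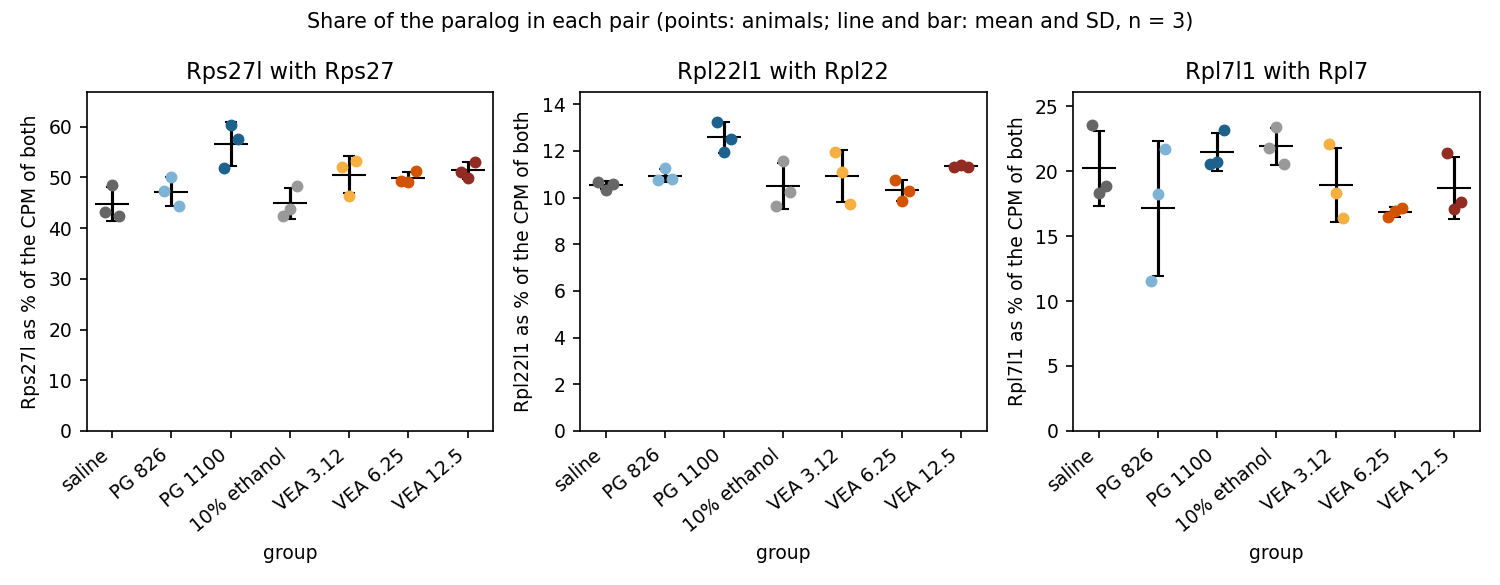
Share of Rps27l, Rpl22l1 and Rpl7l1 in the CPM of each gene plus its partner (vertical axes, in percent, from 0) in every animal of the 7 groups, with mean and SD (n = 3). For Rps27l and Rpl22l1 the 3 PG 1100 animals lie above the 3 saline animals, and for Rpl7l1 the 3 VEA 6.25 animals lie below the 3 ethanol animals. For Rpl22l1 the 3 PG 826 animals also lie above the saline animals, by little.

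Rpl39l had 18, 17 and 20 counts at VEA 3.12, 6.25 and 12.5, summed over the 3 animals of each dose, and 3 counts in ethanol lungs. In each of these groups other than VEA 3.12, 1 animal had no count. Rpl3l had 85, 74 and 78 counts at the same doses and 30 in ethanol lungs. Neither passed (edgeR, adjusted p = 0.352 and 0.309 for the mean of the VEA doses). Markers of striated muscle, where Rpl3l is known to be expressed, had log2 fold changes below 0 in all 7 tested at VEA 3.12, 6.25 and 12.5.

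Both subunits were similar in size of difference. Counts in the large subunit were 1.13 to 1.22 times those in the small subunit in all 21 libraries, with 1.13 to 1.15 at VEA 6.25, against 1.14 to 1.16 in ethanol lungs. At VEA 6.25 the median log2 fold change was 0.30 over 43 large-subunit genes without a paralog ending (4 passed) and 0.36 over 31 small-subunit genes (6 passed). At VEA 12.5 the medians were -0.03 for the large and -0.02 for the small subunit. Rpsa, a small-subunit protein that also serves as a laminin receptor, had 242, 243 and 274 CPM at VEA 6.25 and 201, 209 and 201 CPM in ethanol lungs, with a log2 fold change of 0.31 that did not pass.

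The stalk was less even. Rplp2 had 520, 599 and 743 CPM at VEA 6.25, against 423, 455 and 497 CPM in ethanol lungs, and passed. Its dimer partner Rplp1 had 2938, 3339 and 4380 CPM at VEA 6.25 and 2691, 2784 and 2622 CPM in ethanol lungs. The groups were separated, but with a log2 fold change of 0.40 Rplp1 did not pass. Rplp0, to which both attach, had 295, 346 and 354 CPM at VEA 6.25 and 348, 394 and 326 CPM in ethanol lungs, so its groups overlapped.

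Ribosomal protein genes have many processed copies in the mouse genome, and reads from a transcript end can match several of them. Of the 83 members placed in the GENCODE annotation of GRCm38, 65 share at least 1 stretch of 50 bases in their last 150 transcript bases with another gene, and 31 share over 50% of such stretches. The lean at VEA 6.25 was present in all of these classes. The median log2 fold change was 0.32 in 17 tested members with no shared stretch, 0.39 in 34 with up to 50% shared and 0.27 in 31 with more, over the members that could be placed. Of the 13 that passed, Rps27l and Rpl39 share none, Rps9 shares 5.54%, Rpl22l1 8.18% and Rpl22 9.85%, whereas all stretches of Rpl36a and 64.1% of those of Rps2 are shared. The files also count 9 retrocopies by name, and several outnumber their parents. Rpl37rt had 2.82 times the counts of Rpl37, Rplp2-ps1 had 2.33 times those of Rplp2, and Rps27rt 2.05 times those of Rps27. Rpl37 itself shares none of its 50-base stretches, whereas Rplp2 shares 50% and Rps27 44.7%, so the levels of Rplp2 and Rps27 are the less certain ones. No retrocopy passed in any of the 11 comparisons, but they leaned the same way as the members. At VEA 6.25 each was above 0, from 0.17 (Rpl14-ps1) to 0.53 (Rpl34-ps1). In VEA 12.5 minus VEA 6.25 each was below 0, from -0.30 (Rps15a-ps4) to -0.66 (Rps27rt).

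The members lie on 19 chromosomes, with 14 on chromosome 7. Of them, 30 hold a total of 58 small nucleolar RNA genes within their bounds, the guides that direct ribosomal RNA modification. In 15, a coding gene overlaps on the opposite strand. Whether counting used the strand is not given in the sources used here, so reads of those pairs may be mixed.

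Promoters of ribosomal protein genes are known for a pyrimidine run at the transcription start, the source of the TOP motif. RefSeq promoter sequence for GRCm38.p6 was matched to 63 of the 84 members by symbol. A pyrimidine run was taken as C followed by at least 5 of C or T, on the gene's strand. It had to lie between 15 bases before and 20 after the annotated start. Such a run was present in 55.6% of the 63 and in 25.7% of 27025 symbols. Searched on both strands from 250 bases before to 50 after the start, the ETS family core CCGGAAG was present in 39.7% of members and 9.12% of all symbols. The YY1 core CCATNTT was in 31.8% of members and 16.3% of all, and the GC box GGGCGG in 60.3% and 35.9%. By contrast the E-box CACGTG bound by Myc was in 7.94% of members and 7.24% of all symbols, the NRF1 core GCGCATGC in 3.18% and 2.81%, and the TATA box TATAAA in 9.52% and 14.2%. A match of letters is not evidence of binding.

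The 4 members that passed over the mean of the VEA doses are shown from 40 bases before to 20 after the annotated start, with Rps27 and Rpl22l1 for comparison. Capitals mark runs of at least 6 C or T, and the ETS core where present. Runs are marked anywhere in the stretch shown, a looser rule than the one above, and its share over all symbols was not counted. The marked runs of Rps27l lie upstream of the annotated start. Each holds at least 1 run, and of these 6 the ETS core was seen only in Rps27l, downstream of the start.
Rps27l, chr9:66946046-66946105, plus strand: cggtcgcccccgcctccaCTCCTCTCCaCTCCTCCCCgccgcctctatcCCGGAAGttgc
Rps27, chr3:90213629-90213688, minus strand: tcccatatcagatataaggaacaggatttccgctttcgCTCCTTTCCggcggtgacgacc
Rps9, chr7:3704001-3704060, plus strand: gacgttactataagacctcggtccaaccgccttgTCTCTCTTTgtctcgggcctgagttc
Rpl39, chrX:37085203-37085262, minus strand: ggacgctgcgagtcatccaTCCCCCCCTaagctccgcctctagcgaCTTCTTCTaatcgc
Rps24, chr14:24490638-24490697, plus strand: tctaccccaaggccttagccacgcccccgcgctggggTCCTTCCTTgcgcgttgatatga
Rpl22l1, chr3:28805468-28805527, plus strand: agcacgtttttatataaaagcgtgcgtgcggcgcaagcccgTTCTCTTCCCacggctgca

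Genes that work with the ribosome were described from lists written from general knowledge. Fau, Gnb2l1 and Rpl36al encode ribosomal proteins under other names, and none of these 3 passed in any comparison. At VEA 6.25 their log2 fold changes were 0.18, 0.21 and 0.25. Of 20 other TOP mRNAs, such as elongation factors, none passed at VEA 6.25, with a median of 0.07. Vim, which encodes an intermediate filament protein, was the single one that passed at PG 1100 (0.59) and over the mean of the VEA doses (0.40). That is 5% of the list in each, where 4.09% and 6.08% of all genes passed upward.

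Proteins of the separate mitochondrial ribosome showed a lean at all VEA doses. Of 77 tested, 6 passed upward at VEA 3.12, 9 at VEA 6.25 and 6 at VEA 12.5, and none downward, which is 7.79%, 11.7% and 7.79%, where 3.42%, 3.51% and 5.48% of all genes passed upward. Without animal 65 the count at VEA 6.25 was 3 of 77, where 1.92% of all genes passed upward. Mrps34 had log2 fold changes of 1.05, 0.83 and 0.85 at VEA 3.12, 6.25 and 12.5, and Mrpl43 of 0.68, 0.51 and 0.56, and both passed at each dose. At PG 1100, 2 of 77 passed, Mrpl12 (0.61) and Mrpl19 (0.69), which is 2.6%, where 4.09% of all genes passed upward. Neither passed without saline animal 6, and at PG 826 none passed.

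Of 59 ribosome biogenesis factors, 1 passed upward at VEA 3.12, 2 at VEA 6.25 and 2 at VEA 12.5. These are 1.69%, 3.39% and 3.39%, below the 3.42%, 3.51% and 5.48% of all genes that passed upward, and without animal 65 none passed at VEA 6.25. Mrto4, which is related to Rplp0 and acts in large-subunit assembly, passed at all 3 doses (0.88, 0.89 and 0.88), and Rrs1 passed at VEA 12.5 (0.97). None of the 59 passed at PG 826 or 1100 (1 did at PG 1100 without saline animal 6). Of 31 translation factors, 3 passed upward at VEA 3.12, and 2 at each of VEA 6.25 and 12.5, where 1 also passed downward. The upward counts are 9.68%, 6.45% and 6.45%, against the same shares of all genes, and at VEA 6.25 none passed without animal 65. Eif5a, which relieves ribosomes stalled at proline stretches, passed at each VEA dose (0.48, 0.51 and 0.50), and Eif2s3x, the X-linked gamma subunit of eIF2, was lower at VEA 12.5 (-0.65). At PG 1100 the 2 that passed were Eif3b (0.66) and Eif4h (0.53), which is 6.45%, where 4.09% of all genes passed upward. Without saline animal 6 it was 1 of 31 (3.23%), where 3.72% of all genes passed upward.

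None of 19 genes of mTORC1 signalling and none of 9 of the Myc family passed against the control at any dose. Of 14 p53 targets, Gdf15 passed at each VEA dose (log2 fold changes 3.15, 3.08 and 3.91). It also passed at PG 1100 (1.21), as did Cdkn1a (0.74). Over the mean of the VEA doses, Gdf15 (3.38) and Ccng1 (0.41, edgeR, adjusted p = 0.0494) passed. That is 7.14% of the list at each VEA dose, where 3.42%, 3.51% and 5.48% of all genes passed upward. At PG 1100 and over the mean it is 14.3%, where 4.09% and 6.08% did. Mdm2 did not pass at PG 1100 (-0.04), at VEA 6.25 (-0.15) or over the mean of the VEA doses (-0.14), the comparisons with a control in which Rps27l passed. Of the 14 targets, 9 were above 0 at PG 1100, 8 at VEA 6.25 and 8 over the mean of the VEA doses. Gdf15 is also induced by other stresses, and the part of p53 in the Rps27l results was not tested.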

How the data were processed

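Whole-lung RNA (500 ng of total RNA per library, extracted with Trizol after lavage) was made into 21 QuantSeq 3′ libraries, per the labels' protocols. The authors aligned reads to mm10 with Bowtie2 and counted with bedtools, per the submitters' processing notes, and deposited unnormalised counts per gene for each animal. Versions, strand setting and treatment of multiply mapped reads are not given in the sources used here. Symbols on several rows (35) were summed.

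Total counts were 8778028 to 11783151. A quasi-likelihood model with 1 mean per group was fitted to all 21 libraries in edgeR 4.0.16 (R 4.3.3), after filterByExpr and TMM scaling, with 14 residual degrees of freedom. P-values were adjusted by Benjamini-Hochberg over 14727 genes, with calls at 0.05. CPM used TMM-scaled library sizes. DESeq2 1.42.0, limma-voom (limma 3.58.1), other scalings, no filter, fits to fewer groups and leaving out each library were alternatives. The fit was tested on simulated counts. Animals are separate mice, numbered without overlap between groups.

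The members and lists were chosen with earlier results of these data known. In each comparison, members past the test were named (up to 10 in each direction by size), or the 2 smallest p-values where a direction had none. The paralogs with their partners, stalk genes and Rpsa were always eligible, as were up to 4 called genes of each further list. Rpl31 and Rps13 at VEA 6.25 fall outside this rule and were named after their values were seen. Some genes that the rule or the lists would name are not reported here. Gene positions and transcript ends came from GENCODE M21 (GRCm38), and promoters from RefSeq.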

Additional observations from a re-analysis of the deposited data

Results flagged for a closer look

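For 3 members, all animals at 1 VEA dose lay above all ethanol animals while all animals at another dose lay below them, where 0.238% of all genes (35 of 14727) showed this pattern. The pattern depends on the scaling. With library totals alone none of the 3 had it, since their VEA 12.5 animals overlapped the ethanol animals. Rpl21, a large-subunit gene, had log2 fold changes of 0.13 at VEA 3.12, 0.18 at VEA 6.25 and -0.22 at VEA 12.5. Its CPM were 311, 277 and 293 at VEA 3.12, 294, 278 and 342 at VEA 6.25, 215, 239 and 237 at VEA 12.5, and 265, 267 and 272 in ethanol lungs. Rps3a1, a small-subunit gene, had log2 fold changes of 0.25, 0.20 and -0.17 at VEA 3.12, 6.25 and 12.5. Rpl37a, of the large subunit, had 0.27 at VEA 6.25 and -0.19 at VEA 12.5. The 3 doses share the ethanol animals. With edgeR's test of VEA 12.5 minus VEA 6.25, the log2 fold changes were -0.41 (Rpl21), -0.37 (Rps3a1) and -0.45 (Rpl37a), with adjusted p of 0.353, 0.423 and 0.322, so none of these differences passed.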

How the results depend on the processing

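Of 377 alternatives of the summary results, 331 kept their side of the threshold or stayed within the spread, and among 3806 alternatives of the named members no called member turned its direction. No paired analysis was possible because the groups share no replicate numbers. With library totals alone, 3 members passed at PG 1100, 4 at VEA 3.12, 7 at VEA 12.5 (median 0.20) and 22 over the mean of the VEA doses, and the median of VEA 12.5 minus VEA 3.12 was -0.029. Under that scaling the median over all genes also moved at PG 1100 and VEA 12.5. Without the low-count filter, 2 passed in PG 1100 minus PG 826, 3 at VEA 3.12, 21 at VEA 6.25 and 7 over the mean. DESeq2 passed 2 in PG 1100 minus PG 826, 2 at VEA 3.12 and 7 over the mean. Fits to only the groups compared passed 0 at PG 1100, 0 in PG 1100 minus PG 826, 12 at VEA 3.12, 29 at VEA 6.25, 1 at VEA 12.5 (downward) and 16 over the mean. With a log2 fold change of at least 0.5 required, 1 passed over the mean. The share of all genes that passed under the alternatives above is not given here, so these counts cannot be read against it. In 2 alternatives added after the data were seen, counts fell to 0. Without the 3 libraries with the fewest genes, 0 passed at VEA 6.25 and over the mean. Scaled to the sum of the members, 0 passed there and in PG 1100 minus PG 826, with medians of -0.037 at VEA 3.12, 0.011 at VEA 6.25 and 0.028 in VEA 12.5 minus VEA 3.12. That scaling removes a shift the members share, so these values cannot show whether one was present. The cause of the other shifts was not tested. Leaving out 1 library at a time gave 0 to 1 members at PG 1100, 0 to 4 in PG 1100 minus PG 826, 0 to 24 at VEA 6.25, and 0 to 9 over the mean, where 13 passed at VEA 6.25 with all libraries. The ethanol minus saline median ranged from -0.26 to 0.00044. Members took 3.84% of all counts, 4.84% without Rn45s and 5.32% also without haemoglobin genes. Groups held 3 animals, with a common biological coefficient of variation of 23.8%, and depth limits only Rpl3l, Rpl39l and Rpl10l.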
